A study of Mus musculus with 4 samples.

Results

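The Rab GTPase genes were examined for open chromatin in mouse macrophages, with and without the creatine transporter gene and with and without IL-4. Members were the protein-coding mouse genes whose symbol is Rab followed by a number and an optional letter, which leaves out genes named for Rab regulators. This gave 59 members of 21887 protein-coding genes on the assembled nuclear chromosomes, with positions on GRCm38.p6, the assembly also called mm10. No expression or other readout was used to choose them.

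Rab proteins are small GTPases that sit on membranes and act as switches. Guanine nucleotide exchange factors (GEFs) load them with GTP, GTPase-activating proteins (GAPs) turn them off, and effectors bind the GTP form to move, tether or fuse vesicles. Each Rab marks particular compartments, and in macrophages they steer phagosomes from the early, Rab5-bearing stage to the late, Rab7-bearing stage that fuses with lysosomes.

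Bone marrow of C57BL/6 mice was grown for 5 days with 10% M-CSF, and 50000 of the resulting macrophages were used for each ATAC-seq library, in which the Tn5 transposase cuts open chromatin. The 4 groups were wild type (WT) untreated, WT given 10 ng/mL IL-4 over 6 h, Slc6a8-/y (KO) untreated, and Slc6a8-/y with the same IL-4 treatment. Where 4 values follow each other without labels, they stand in that order of groups. IL-4 drives macrophages to the alternatively activated state, and Slc6a8, on the X chromosome, encodes the creatine transporter. Every group, the untreated WT group included, had been grown with M-CSF, and the sources used here do not give the number of mice behind each library.

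Each group had 1 library, so no difference between groups could be set against replicate spread, and no test was run. Intervals in brackets are exact 95% Clopper-Pearson intervals, which cover counting error only. The deposited data are 4 lists of peaks, the regions called open, each with a score that is the authors' own value. The lists differed in length, from the shortest, WT IL-4, through KO IL-4 with 10443 peaks and KO untreated with 13714 to WT untreated with 17339, and read depth is unknown. Counts are therefore given for all peaks and again for as many of the highest-scoring peaks of each list as the shortest list holds, called equal list length. The lowest score was then 89.57, 50, 67.78 and 52.2.

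The macrophage label was set beside 13 marker genes. Of these, 13, 8, 9 and 6 had a peak within 10 kb, and 7, 3, 5 and 3 an edge peak. Over all genes 38.2%, 28.4%, 34.8% and 29% had an edge peak, so the marker share was no higher in the IL-4 libraries. Csf1r and Mrc1 had no edge peak in any library. Shares of all genes with a peak within 10 kb are not given here. Within 10 kb, 2 of 5 T cell markers had a peak in each library, 1 of 3 erythroid markers in each, 2, 1, 1 and 1 of 4 B cell markers, 1, 0, 1 and 1 of 4 markers of other tissues and 1, 0, 0 and 0 of 6 neutrophil markers. The 3 mast cell and 4 fibroblast markers had none. The part of other cells in the results was not tested. Slc6a8 itself had no peak within 10 kb in any library, so these lists cannot check the genotype. In bulk libraries, fewer cells with an open site and less opening per cell cannot be told apart.

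Rab genes carried peaks at their ends more often than protein-coding genes at large in all 4 libraries. An edge peak is a peak within 1 kb of either end of the gene's span. In WT untreated macrophages 35 of 59 Rab genes had one (59.3%, interval 45.7 to 71.9), against 38.2% of all genes. WT IL-4 macrophages had 29 (49.2%, interval 35.9 to 62.5, all genes 28.4%). KO untreated macrophages had 36 (61%, interval 47.4 to 73.5, all genes 34.8%), and KO IL-4 macrophages had 30 (50.8%, interval 37.5 to 64.1, all genes 29%). The background share lay below the interval of the Rab genes in each library.

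The excess remained at equal list length. The counts were then 31 Rab genes in WT untreated (all genes 29.3%), 29 in WT IL-4 (all genes 28.4%), 33 in KO untreated (all genes 29.9%) and 30 in KO IL-4 (all genes 28.3%). With lists of the same length the number of Rab genes with an edge peak spanned 29 to 33, where the full lists gave 29 to 36. Cutting the longer lists can only lower their counts, so the narrower range is in part built in.

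**Figure D1:**
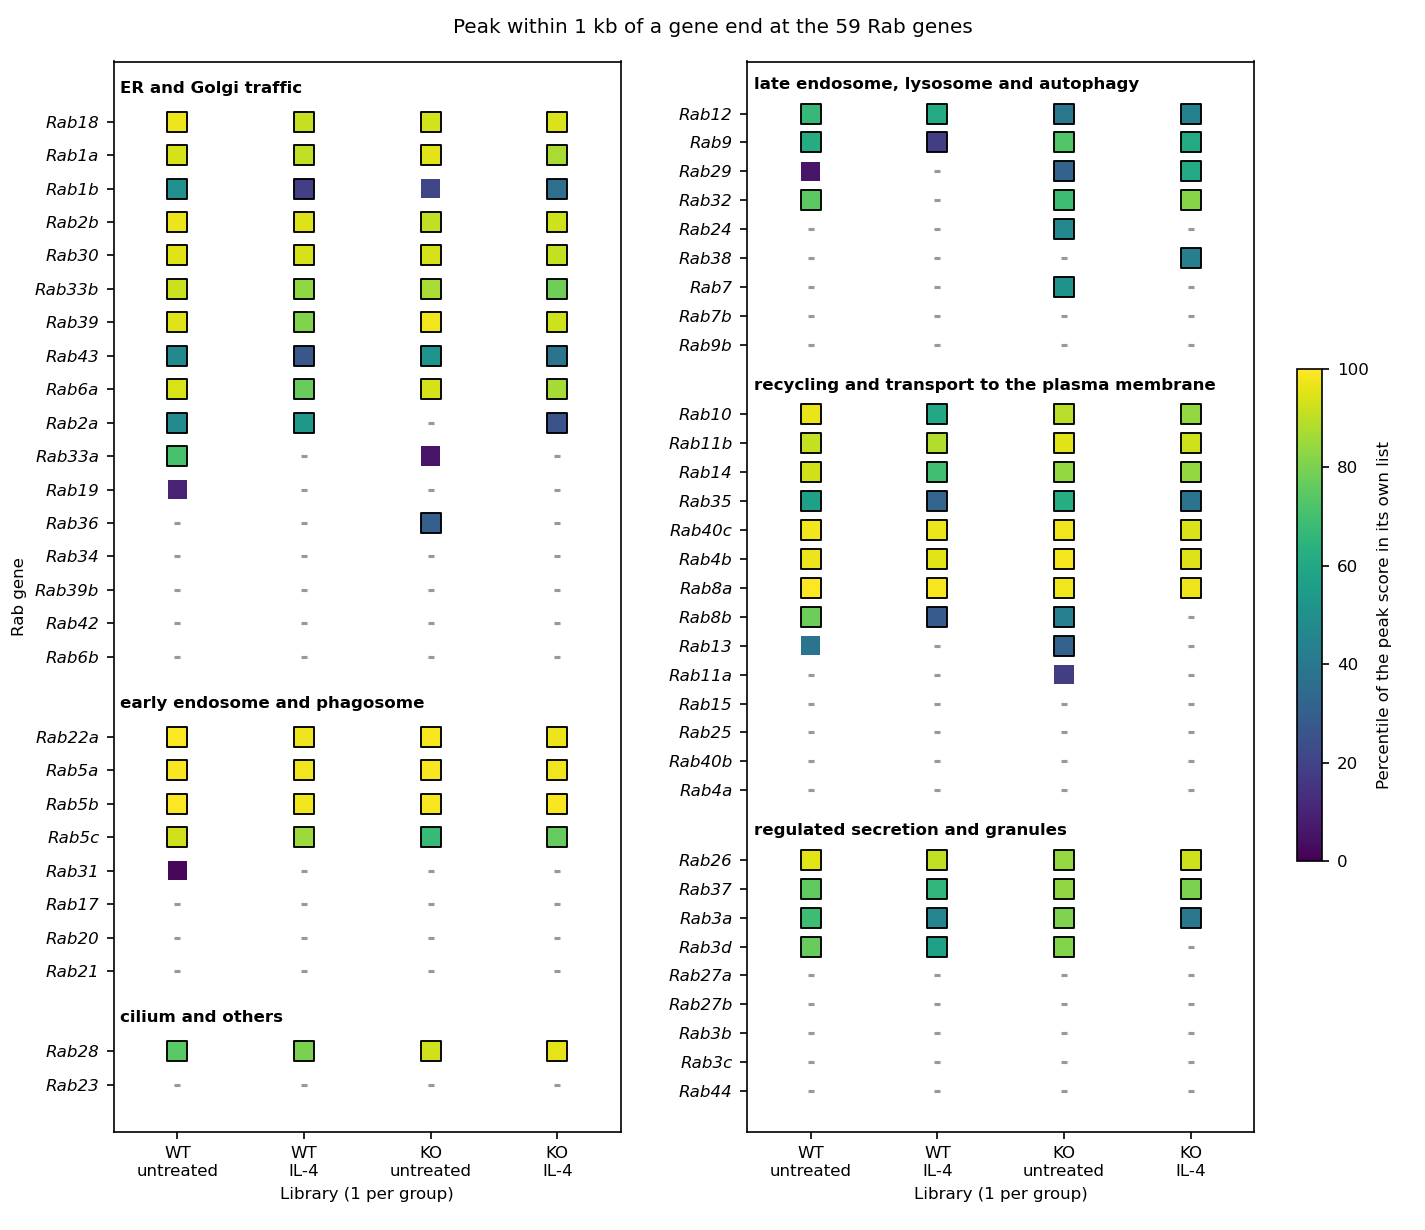
Each row is 1 of the 59 Rab genes, grouped by role, and each column 1 library; a square marks an edge peak, coloured by the percentile of its score within its own list, with a black border where the peak is also in the equal-length list, and a dash marks no edge peak. In 26 genes squares run across all 4 columns, and in 19 genes there are none.

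The family split into 3 classes. An edge peak was present in all 4 libraries at 26 members, in 1 to 3 libraries at 14 and in none at 19. Over all genes these classes held 22.9%, 18.8% and 58.3%, which are the shares to set beside the counts by role that follow. Among the 40 Rab genes with an edge peak anywhere, 26 had it in all 4 libraries (65%, interval 48.3 to 79.4), where the share over all genes was 55%. With equal lists this was 25 of 37 (67.6%, interval 50.2 to 82) against 57%. Both intervals hold the background, so the Rab genes were not set apart in this respect.

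Peaks of the 26 genes present throughout were high in their lists. This is in part built into the class, as weak edge peaks were lost more often over all genes. With IL-4 in WT, 66.3% of all genes with a best score below 100 lost theirs, and 1.44% at 200 or more. The median score of the edge peaks of these 26 Rab genes was 334, 158, 257 and 192, at median percentiles of 93.8, 84.1, 91.7 and 89.2 within each list. They were also wide, with a median of 710 bp in WT untreated where the whole list, peaks away from gene ends included, had 438 bp. Scores and widths for all genes with an edge peak in all 4 libraries are not given here. Whether these values are particular to Rab genes was thus not tested. The 9 genes of the intermediate class that had an edge peak in WT untreated had a median score of 96.4 there. The score is used here to rank peaks within a list and not to compare libraries.

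Promoter sequences are shown for 8 members that carry these contrasts: Rab5b and Rab8a (the highest edge scores in WT untreated), the paralog pairs Rab8a and Rab8b and Rab11b and Rab11a, in which only the first named had an edge peak in all 4 libraries, Rab32 and Rab7, whose edge peaks were absent from 1 and from 3 libraries, and Rab27a, which had none. Each is the 250 bases before the annotated start, 5′ to 3′ along the gene's own strand, from RefSeq on GRCm38.p6. Rab7 and Rab27a have 2 annotated starts each, of which 1 is shown. With 50 bases after the start included, the other window held 38 CpG pairs for Rab7 and 6 for Rab27a, against 18 in each shown. Capitals mark matches on either strand to the searched motifs named further down. The windows are, for Rab5b, chr10:128696269-128696518 on the minus strand, for Rab8a, chr8:72160950-72161199 on the plus strand, for Rab8b, chr9:66919706-66919955 on the minus strand, for Rab11b, chr17:33760487-33760736 on the minus strand, for Rab11a, chr9:64737757-64738006 on the minus strand, for Rab32, chr10:10558208-10558457 on the minus strand, for Rab7, chr6:88045271-88045520 on the minus strand, and for Rab27a, chr9:73044560-73044809 on the plus strand.
Rab5b: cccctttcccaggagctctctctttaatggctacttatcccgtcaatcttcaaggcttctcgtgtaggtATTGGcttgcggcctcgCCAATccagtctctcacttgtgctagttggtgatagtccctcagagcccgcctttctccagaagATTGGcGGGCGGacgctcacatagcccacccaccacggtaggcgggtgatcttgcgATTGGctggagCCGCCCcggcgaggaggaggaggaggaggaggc
Rab8a: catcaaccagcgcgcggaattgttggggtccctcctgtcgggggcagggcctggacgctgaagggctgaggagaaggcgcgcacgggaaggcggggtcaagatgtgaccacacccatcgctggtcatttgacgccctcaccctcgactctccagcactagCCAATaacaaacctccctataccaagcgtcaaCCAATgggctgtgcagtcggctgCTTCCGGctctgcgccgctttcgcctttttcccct
Rab8b: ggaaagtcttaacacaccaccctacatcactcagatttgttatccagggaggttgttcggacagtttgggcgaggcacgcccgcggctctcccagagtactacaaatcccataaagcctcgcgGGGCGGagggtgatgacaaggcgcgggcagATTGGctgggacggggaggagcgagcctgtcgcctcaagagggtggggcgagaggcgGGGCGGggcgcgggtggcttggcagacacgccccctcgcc
Rab11b: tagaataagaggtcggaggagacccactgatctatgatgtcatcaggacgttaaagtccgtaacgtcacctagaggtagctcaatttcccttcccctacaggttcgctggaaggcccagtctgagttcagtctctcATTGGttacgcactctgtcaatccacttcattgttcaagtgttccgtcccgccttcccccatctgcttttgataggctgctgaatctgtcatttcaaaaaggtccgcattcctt
Rab11a: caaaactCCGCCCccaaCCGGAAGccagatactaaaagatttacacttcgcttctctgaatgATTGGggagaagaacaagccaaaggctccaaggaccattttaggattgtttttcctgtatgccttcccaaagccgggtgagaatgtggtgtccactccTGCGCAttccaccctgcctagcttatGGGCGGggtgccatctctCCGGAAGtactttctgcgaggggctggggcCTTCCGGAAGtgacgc
Rab32: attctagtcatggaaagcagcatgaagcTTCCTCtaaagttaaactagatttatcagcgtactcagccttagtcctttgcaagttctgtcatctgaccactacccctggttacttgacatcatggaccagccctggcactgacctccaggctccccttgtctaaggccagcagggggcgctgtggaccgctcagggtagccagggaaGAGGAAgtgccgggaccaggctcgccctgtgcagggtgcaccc
Rab7: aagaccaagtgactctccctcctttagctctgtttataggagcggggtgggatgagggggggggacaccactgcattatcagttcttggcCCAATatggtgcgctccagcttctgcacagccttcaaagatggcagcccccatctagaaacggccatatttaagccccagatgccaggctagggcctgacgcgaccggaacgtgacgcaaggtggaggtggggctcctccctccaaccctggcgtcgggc
Rab27a: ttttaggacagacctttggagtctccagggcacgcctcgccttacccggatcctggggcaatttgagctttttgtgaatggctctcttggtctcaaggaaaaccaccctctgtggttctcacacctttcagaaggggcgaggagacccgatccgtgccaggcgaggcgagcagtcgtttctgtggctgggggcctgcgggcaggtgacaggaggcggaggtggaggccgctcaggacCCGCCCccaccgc

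Of these, Rab5b had the most CCAAT matches, 4 in 250 bases, and Rab8a had 2, at -90 and -58 counted back from the start with -1 the last base before it. Rab8b held 20 CpG pairs and 2 matches to GGGCGG, and Rab8a 18 CpG pairs and none. Rab11a held 4 matches to CCGGAAG, of which 2 overlap on opposite strands, and Rab11b held 0, so the pair differed in letters as well as in peaks. The Rab32 window had the fewest CpG pairs of the 8, with 5, and its matches were to GAGGAA, at -222 and -43. The plot of peak extents shows where the peaks lie against these windows.

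**Figure D2:**
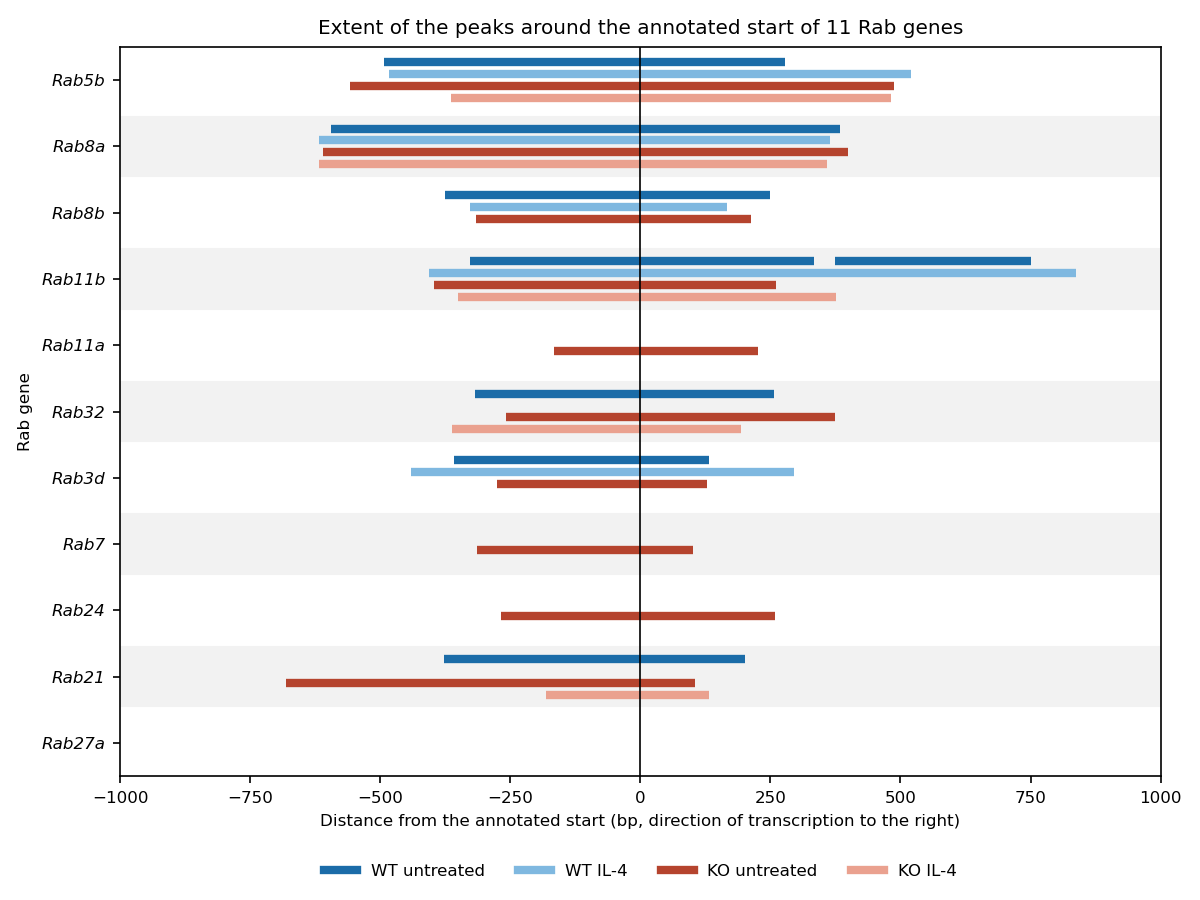
Horizontal bars span the peaks around the annotated start (vertical line at 0) of 11 Rab genes, 1 colour per library, with distance in bp along the direction of transcription. Rab5b and Rab8a have a bar in each of the 4 libraries, Rab8b lacks the KO IL-4 bar, Rab11a has the KO untreated bar alone and Rab27a has none.

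Among early endosome and phagosome Rabs, 4 of 8 had edge peaks in all 4 libraries and 3 in none. Rab5a, Rab5b and Rab5c, the isoforms that recruit fusion machinery to early endosomes and young phagosomes, each had an edge peak in all 4 libraries. Rab5b scored 692.45, 308.21, 483.99 and 392.92. Rab5a scored 557.81, 310.06, 516.08 and 310.81, and Rab5c 315.55, 161.08, 129.78 and 133.44. Rab5b and Rab5a stood at the 99.6 and 99.0 percentile of the WT untreated list, so few peaks of any gene ranked above them. Rab22a, which acts in sorting and recycling from early endosomes, scored 618.24, 294.53, 472.45 and 293.69. A further Rab22a region, chr2:173707598-173707989, downstream of the gene, was found in WT IL-4 alone, with a score of 71.35.

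The other Rabs of this compartment had weak or no edge peaks. Rab31, which carries cargo between the trans-Golgi network and endosomes, had an edge peak in WT untreated alone, with a score of 51.59 near the bottom of that list. Its span held 3 further regions away from the ends. The one at chr17:65729822-65730830 was found in WT untreated, WT IL-4 and KO untreated and not in KO IL-4. Rab20, linked to phagosome maturation, had no edge peak but a region inside its span at chr8:11463662-11464643 that scored 200.42 in WT untreated, 121.27 in WT IL-4 and 124.11 in KO untreated and was absent from the KO IL-4 list. Rab21, which acts in integrin uptake, had no peak at the end of its span. Its annotated start lies inside the span, and a peak covered that start in each library but WT IL-4, with scores of 113.94, 130.7 and 50.49. Rab17, an epithelial Rab, had no edge peak.

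Of the late endosome, lysosome and autophagy Rabs, 5 of 9 had edge peaks in 1 to 3 libraries, against 14 of 59 members and 18.8% of all genes, and 2 of 9 in all 4. Rab7, the switch for fusion of late endosomes and phagosomes with lysosomes, had an edge peak in KO untreated alone, with a score of 95.1. The peak, at chr6:88045169-88045583, covered the annotated start. Rab9, which returns cargo from late endosomes to the Golgi, had edge peaks of 125.13, 59.01, 146.16 and 100.46. Rab12, an endosomal Rab linked to autophagy, also had one in all 4 libraries, with 139.31, 99.57, 80.62 and 79.09.

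Rab32 and Rab38, paralogs that build lysosome-related organelles, did not share a pattern. Rab32 scored 168.37 in WT untreated, 133.67 in KO untreated and 152.42 after IL-4 in KO, and had no peak at its locus in WT IL-4. Rab38 had an edge peak in KO IL-4 alone, with a score of 78.45. Rab29, which is tied to the kinase LRRK2 at the Golgi and lysosomes, followed Rab32, with 54.11, 71.08 and 100.35 in the same libraries and none in WT IL-4. With all peaks, WT IL-4 was thus the 1 library of 4 with no edge peak for both Rab29 and Rab32. The WT untreated peak of Rab29 was not in the equal-length list, so Rab29 then lacked an edge peak in both WT libraries. Rab24, linked to autophagy, had an edge peak in KO untreated alone, at 90.02. Rab7b, which acts between endosomes and the trans-Golgi network, had no edge peak but 5 regions within 10 kb. The strongest of these scored 120.02 in WT untreated. Rab9b had no peak within 10 kb.

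Recycling and plasma membrane Rabs had edge peaks in all 4 libraries at 7 of 14 members, in some at 3 and in none at 4. Rab8a, which brings vesicles to the cell surface and to cilia, scored 636.01, 375.39, 407.32 and 299. Its paralog Rab8b scored 178.37, 65.84 and 84.52 in the same libraries up to KO untreated and had no edge peak in KO IL-4. Rab11b, of the recycling endosome, scored 287.43, 181.13, 307.05 and 214.64. Rab11a, the better known recycling isoform, had an edge peak in KO untreated alone, with 60.46. In both pairs the paralog with peaks in all 4 libraries also had the higher score in each library where both had a peak.

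Rab14, which acts between the Golgi and endosomes, scored 315.25, 116.17, 194.96 and 159.72. Rab40c, a Rab with a SOCS box that binds ubiquitin ligases, scored 483.92, 283.92, 390.6 and 238.92, while its paralog Rab40b had no edge peak and, in all 4 libraries, a nearby region within 1 kb of an end of Wdr45b. Rab10, known for the delivery of glucose transporters to the surface, scored 405.38, 98.69, 231.48 and 161.18. It stood at the 96.5 percentile in WT untreated. Rab4b, of rapid recycling, scored 420.74, 247.38, 460.65 and 243.04, whereas Rab4a had no peak within 10 kb in any library. Rab35, of the fast recycling route, was the remaining member present throughout, with 114.24, 68.25, 116.15 and 73.95. Rab13, a junction and surface Rab, had edge peaks of 83.65 in WT untreated and 71.14 in KO untreated and none after IL-4. Rab15 and Rab25 had no edge peak.

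ER and Golgi Rabs were the largest group, with 9 of 17 present throughout. Rab1a and Rab1b, which drive transport from the ER to the Golgi, were both among them. Rab1a scored 328.81, 194.9, 314.4 and 176.93, and Rab1b 100.02, 59.37, 62.39 and 72.65. The KO untreated peak of Rab1b was not in the equal-length list. Rab2b, a Golgi Rab, scored 423.82, 233.71, 244.19 and 214.83. Its paralog Rab2a scored 96.41 in WT untreated, 88.99 in WT IL-4 and 64.18 in KO IL-4, and had no edge peak in KO untreated. Rab18, of lipid droplets and the ER, scored 433.92, 199.78, 274.14 and 236.23, and Rab39 scored 366.79, 146.25, 401.09 and 216.61. Rab6a, of retrograde Golgi transport, scored 339.9, 133.2, 279.07 and 174.62. The Golgi Rabs Rab30 and Rab33b, the latter also of autophagy, had 366.1, 219.14, 281.02 and 206.45, and 301.44, 154.33, 213.83 and 139.28. Rab43, a further ER and Golgi Rab, was lower, with 96.21, 64.81, 97.26 and 74.35. Of the 9, Rab1b and Rab43 were thus the members with scores near or below 100 in every library.

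The paralogs of several of these lacked edge peaks. Rab6b, Rab39b, Rab34 and Rab42 had none in any library. Rab33a, on the X chromosome, had edge peaks of 152.15 in WT untreated and 52.76 in KO untreated and none after IL-4. These lay at the end of its span and not at its annotated start, in a region that held the annotated start of Aifm1. Rab19 had an edge peak of 56.61 in WT untreated alone and Rab36 one of 70.31 in KO untreated alone. None of the 3 had an edge peak in a list of IL-4-treated cells.

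Secretory Rabs had no edge peak in any library at 5 of 9 members, near the 58.3% of all genes. Rab27a, which docks lysosome-related granules, had no edge peak, and within 10 kb of its span 2 regions of 59.39 and 52.08 were found in WT untreated alone. Rab27b, Rab3b and Rab44 had no peak within 10 kb. Rab3c had no edge peak. Rab3d, the Rab3 of non-neuronal secretory granules, scored 175.74 in WT untreated, 93.66 in WT IL-4 and 180.97 in KO untreated and had no edge peak in KO IL-4. About 6 kb upstream of its start, a region at chr9:21923889-21924512 was found in both IL-4 libraries, with 52.8 in WT and 70.68 in KO, and in neither untreated one. Rab3a, of synaptic vesicles, was present throughout, with 145.09, 80.3, 177.22 and 75.42. So were Rab26, with 370.34, 194.6, 196.53 and 216.75, and Rab37, with 170.36, 108.31, 190.99 and 147.28, but the edge region of Rab26 held the annotated start of Traf7 and that of Rab37 the start of Slc9a3r1. Of the remaining members, Rab28 had edge peaks of 165.43, 142.44, 269.48 and 262.37, and Rab23, a Hedgehog and cilium Rab, had none.

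Neighbouring genes limit what an edge peak can be assigned to. Of the 27 edge regions found in all 4 libraries, 8 lay within 1 kb of an end of another gene, among them those of Rab1b with Klc2 and Rab5b with Pmel. Those of Rab6a and Rab2b also held the annotated starts of Mrpl48 and Tox4. Among edge regions in fewer libraries, that of Rab33a held the start of Aifm1 and not its own. Those of Rab24 and Rab13 held the starts of Prelid1 and Rps27 beside their own. Of all 41 edge regions, 31 held the member's own annotated start, 3 did not, and 7 belonged to members with no start in the table used. Edge regions were found in all 4 libraries in 27 of 41 cases (65.9%, interval 49.4 to 79.9), where edge regions of all genes were in 51.7%. Regions elsewhere at the Rab loci were in all 4 in 10 of 51 cases (19.6%, interval 9.82 to 33.1), against 27.5% over all genes, and 72.5% were in 2 or more libraries, against 64%. Each interval holds its own background share. Whether the contrast between ends and other sites differed from that of other genes was not tested.

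IL-4 in WT macrophages was accompanied by 6 losses and no gain of an edge peak. A gene is said to lose its edge peak when the reference library has one and the other does not, and to gain one in the reverse case. The genes that lost it were Rab13, Rab19, Rab29, Rab31, Rab32 and Rab33a, 6 of 35 (17.1%, interval 6.56 to 33.6), against 28.8% of all genes. No gain was seen in 24, and 1.89% of all genes gained one. In lists of equal length 2 of 31 lost it, Rab32 and Rab33a (all genes 16.8%), and 0 of 28 gained it (all genes 5.61%). Only Rab32 and Rab33a thus lost an edge peak at both list lengths, and the Rab33a region held the start of Aifm1 and not its own.

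IL-4 in KO macrophages was accompanied by 8 losses, of Rab11a, Rab13, Rab24, Rab33a, Rab36, Rab3d, Rab7 and Rab8b. This was 8 of 36 (22.2%, interval 10.1 to 39.2), close to the 22.7% of all genes. Rab2a and Rab38 gained one, 2 of 23, against 3.22% of all genes. At equal list length 6 of 33 lost one (all genes 17.5%) and 3 of 26 gained one (all genes 5.28%), the added gain being Rab1b. Losses of Rab genes in both genotypes were within counting error of the background. Whether the response to IL-4 differed between genotypes was not tested.

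**Figure D3:**
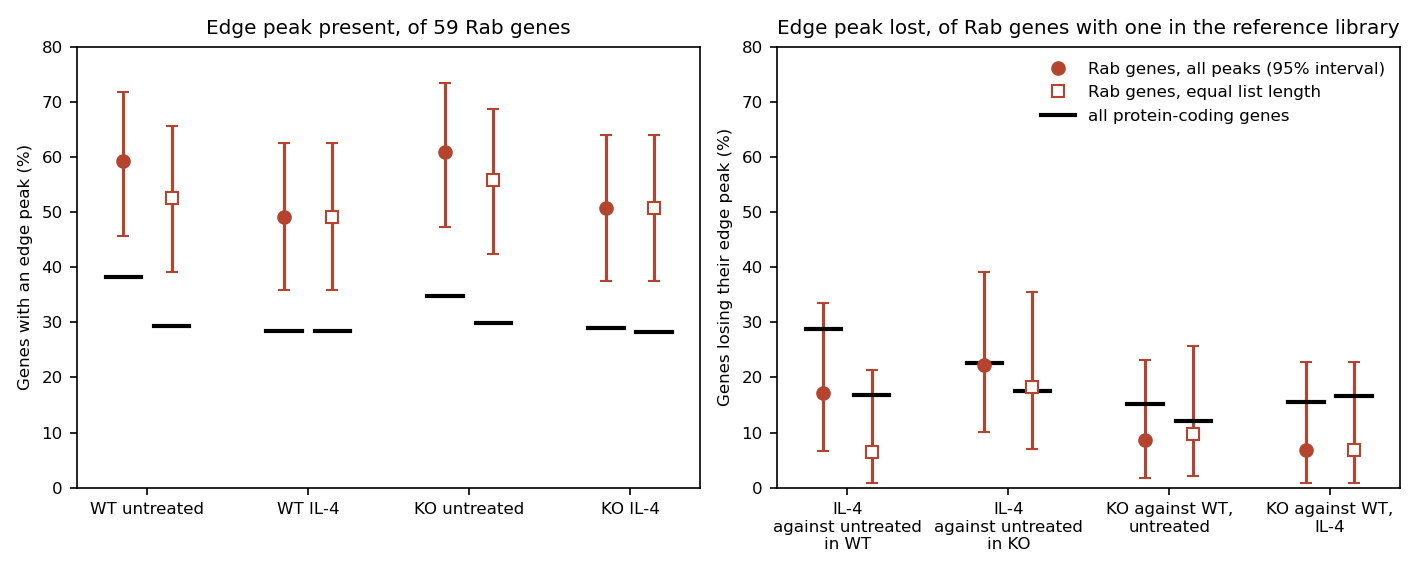
The left panel plots the percent of the 59 Rab genes with an edge peak in each library, and the right panel the percent of Rab genes losing their edge peak in each comparison, with exact 95% intervals as error bars, filled circles for all peaks, open squares for equal list length and black bars for all protein-coding genes. All 8 intervals on the left lie above the black bar, and all 8 on the right include it.

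The losses sat among the weak peaks. Of WT untreated members whose best edge score was below 100, 4 of 6 lost the peak with IL-4 (all genes 66.3%), and of those from 100 to 200, 2 of 11 did (all genes 25.6%). None of the 18 members at 200 or more lost it (all genes 1.44%). In KO macrophages the counts were 7 of 11 below 100 (all genes 51.3%), 1 of 9 from 100 to 200 (all genes 12%) and 0 of 16 at 200 or more (all genes 1.33%). The members with high scores, among them the 3 Rab5 genes in WT untreated, kept an edge peak after IL-4. These classes were set after the data had been seen.

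Without Slc6a8, untreated macrophages had an edge peak at Rab7, Rab11a, Rab24 and Rab36 where WT had none, and lacked one at Rab2a, Rab19 and Rab31. The gains were 4 of 24 (16.7%, interval 4.74 to 37.4), against 3.88% of all genes, and the losses 3 of 35 (8.57%), against 15.1%. The 4 gained peaks scored between 60.46 and 95.1. At equal list length 5 of 28 gained one, Rab7, Rab13, Rab24, Rab29 and Rab36 (17.9%, interval 6.06 to 36.9, all genes 5.78%), and 3 of 31 lost one, Rab1b, Rab2a and Rab33a (all genes 12.1%). The lower bound of the gains lay just above the background at both list lengths, while the intervals of the gains in the other 3 comparisons hold it. Rab7, Rab24 and Rab36 thus gained and Rab2a lost an edge peak at both list lengths. The Rab24 region also held the start of Prelid1. No allowance was made for having looked at gains in 4 comparisons. Lists of genes that act on Rabs also had gains in KO against WT untreated cells. With all peaks and at equal list length these were 2 and 4 among 48 GEFs, 0 and 2 among 37 GAPs and 4 and 3 among 61 effectors. Whether the gains were particular to Rab genes was not tested. This comparison and that of IL-4 in WT share the WT untreated library, and that of IL-4 in KO shares its KO untreated library, so their calls are not independent.

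After IL-4, KO macrophages had an edge peak at Rab29, Rab32 and Rab38 where WT had none, and lacked one at Rab3d and Rab8b. This was 3 gains of 30 (all genes 7.1%) and 2 losses of 29 (6.9%, all genes 15.6%). The same 5 genes were called at equal list length, where 6.56% of all genes gained and 16.6% lost an edge peak. The 3 genes with a gain all belong to the late endosome and lysosome group, in which 2 of 9 members had an edge peak in WT IL-4. The interval of the gains, 2.11 to 26.5%, holds the background, and whether they favoured a role was not tested. The strongest peaks of this comparison were those of Rab32, at 152.42 in KO, and of the region inside Rab20, at 121.27 in WT.

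Over whole loci, the span with 10 kb on each side, the Rab genes had 84, 51, 68 and 56 peaks. With lists of equal length these were 54, 51, 57 and 53. The log2 ratio of IL-4 to untreated was -0.71 in WT (exact interval from the share of the 2 counts -1.25 to -0.20, all genes -0.75) and -0.28 in KO (interval -0.82 to 0.25, all genes -0.38). At equal list length it was -0.08 in WT (all genes -0.01) and -0.10 in KO (all genes -0.02). Cutting the lists to 1 length removes most of the difference for all genes by construction, so this says nothing about opening. As read depth is unknown, shorter lists and fewer open sites cannot be told apart here. For KO against WT the log2 ratio was -0.30 in untreated cells (interval -0.79 to 0.17, all genes -0.30) and 0.13 after IL-4 (interval -0.44 to 0.71, all genes 0.07).

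Single locus peaks followed the background too. With IL-4 in WT, 34 of 84 Rab locus peaks had no overlap in the other list (40.5%, all genes 45.1%), and in KO 21 of 68 (30.9%, all genes 35.6%). Between genotypes it was 21 of 84 in untreated cells (25%, all genes 29.1%) and 10 of 51 after IL-4 (19.6%, all genes 24.2%). The highest-scoring peak lost with IL-4 in WT lay downstream of Rab1a, at chr11:20231195-20231649, with 196.56. It was followed by the Rab32 start and a site upstream of Rab25 with 159.05. The region of the Rab25 site held the annotated start of Lamtor2 and not that of Rab25. In KO the first was the Rab3d start, at 180.97, followed by the region inside Rab20 at 124.11.

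Promoter windows, 250 bases before and 50 after each RefSeq start on GRCm38.p6, were at hand for 48 of the 59 members, in 60 windows. Rab windows held a median of 19.5 CpG pairs, against 13 over all 21263 windows. The median was 26 for members with an edge peak in all 4 libraries, 18 for those in 1 to 3 and 13 for those in none, where all genes had 22, 19 and 6. The ranges overlapped widely, from 3 to 43 in the first class and 3 to 45 in the last, where Rab6b had 42 CpG pairs with no edge peak and Rab23 had 45 in 1 of its windows.

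**Figure D4:**
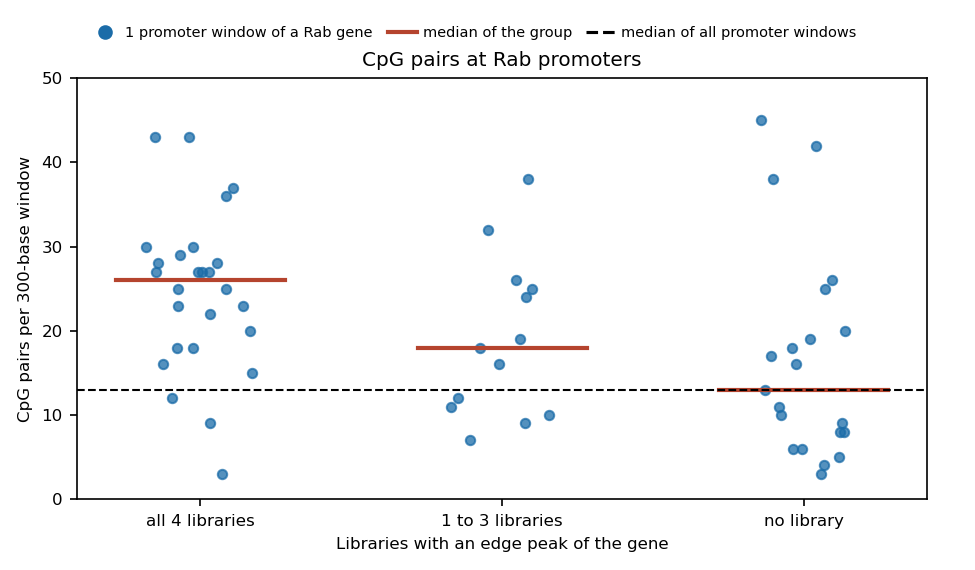
Points give CpG pairs per promoter window of the Rab genes, grouped by the number of libraries with an edge peak; red lines are group medians and the dashed line the median of all promoter windows. The medians are 26, 18 and 13 from left to right, with overlapping ranges.

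Motif letters were counted on both strands of the same windows. CCAAT, the box bound by NF-Y, was found in 43.3% of Rab windows and 38.2% of all windows. It was in 16 of 26 windows (61.5%) of members with an edge peak in all 4 libraries and in 5 of 21 (23.8%) of those with none, where the shares over all genes in those classes were 47.7% and 35.8%. GGGCGG, the GC box of Sp factors, was in 68.3% of Rab windows and 46.2% of all, and in 76.9% and 66.7% of the Rab classes with peaks in all libraries and in none (all genes 67.9% and 32.6%). TGCGCA, the core of NRF1 sites, was in 15% and 9.74%, and CACGTG, an E-box, in 10% and 7.84%. Between the same classes TGCGCA was in 23.1% and 9.52% (all genes 16.5% and 5.56%), and CACGTG, in the other direction from all genes, in 3.85% and 19% (all genes 10.5% and 5.81%). The letters CCGGAAG of ETS factors were in 8.33% of Rab windows and 11.6% of all, and GAGGAA, the core of PU.1-type sites, in 18.3% and 27.4%. TGANTCA of AP-1 was in 5% and 6.99%. For these 3 the classes had 7.69% and 4.76% (all genes 21.6% and 4.96%), 19.2% and 19% (all genes 26.4% and 28.3%), and 0% and 14.3% (all genes 4.25% and 8.73%). The Rab classes hold few windows, some of them of the same gene. The core GGAA is common to CCGGAAG and GAGGAA, but no core can match both. A match describes letters, not binding.

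Genes that act on Rabs were set beside the family. The shares over all genes to set beside them are 38.2%, 28.4%, 34.8% and 29%. Of 48 GEFs, 35, 27, 30 and 26 had an edge peak (72.9%, 56.2%, 62.5% and 54.2%). Of 37 GAPs the counts were 28, 15, 21 and 17, and of 61 effectors 31, 23, 31 and 24. The 10 genes of prenylation, escort and GDP dissociation inhibition had 6, 5, 7 and 7. With IL-4 in WT, 13 of the 28 GAPs with an edge peak lost it (46.4%, all genes 28.8%), and in KO 6 of 21 (28.6%, all genes 22.7%). At equal list length these were 4 of 18 (22.2%, all genes 16.8%) and 3 of 17 (17.6%, all genes 17.5%). Losses of the other lists are not given here.

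**Figure D5:**
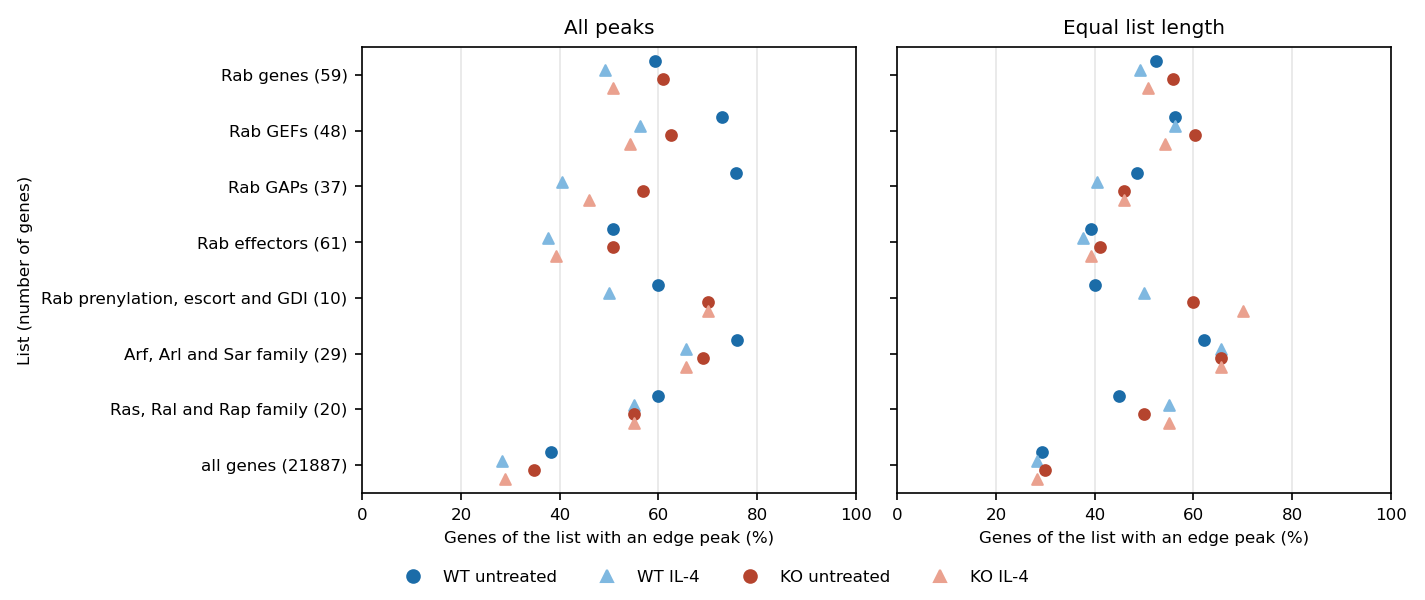
Points give the percent of genes with an edge peak in each list of Rab regulators, related small GTPase families and all genes, with circles for untreated and triangles for IL-4 libraries, for all peaks on the left and at equal list length on the right. On the left panel each list lies to the right of all genes in the same library, and the gap between WT untreated and WT IL-4 is smaller on the right panel for the GAPs.

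Few of these regulators changed alike in both genotypes and at both list lengths. Edge peaks at Trappc5, a subunit of the TRAPP complexes that act on Rab1 and Rab11, were lost with IL-4 in both genotypes, from 93.05 in WT untreated and 71.64 in KO untreated. The same held for Rab3gap1, the catalytic subunit of the Rab3 GAP, at 95.2 and 81.82, for Micall2, an effector of Rab8 and Rab13, at 127.77 and 124.78, and for Rubcn, which binds Rab7 and holds back endosome maturation, at 103.18 and 99.49. Dennd1a, a GEF of Rab35, had an edge peak with IL-4 alone, at 64.79 in WT and 80.46 in KO. Dennd6b, a GEF of the DENN family, had one in both WT libraries, at 104.22 untreated and 70.88 with IL-4, and in neither KO library. No Rab gene had an edge peak in both WT libraries and in neither KO library, or in both IL-4 libraries and in neither untreated one. With all peaks, Rab13 and Rab33a had one in both untreated libraries alone, but not at equal list length. Shares of all genes with these patterns are not given here, so these counts have no background beside them.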

How the data were processed

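ATAC-seq peaks were analysed from 4 libraries, 1 per group. Bowtie2 2.2.5, MACS 1.4.2, HOMER and mm10 were listed, per the submitters' processing notes, with no roles or parameters. The peak score is the authors' value as deposited, with no unit stated. It was used to rank and describe peaks within a list. Peaks were called per library.

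Genes came from a RefSeq table of GRCm38.p6, protein-coding and on assembled nuclear chromosomes. An edge peak overlapped 1 kb around a span end by at least 1 bp; a locus was the span with 10 kb on each side. For log2 ratios, both of locus peaks and of gained to lost peaks, 0.5 was added to each count. Intervals of the locus ratios used the counts without this addition. Members and lists were chosen with earlier results of these data known.

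Genes named were 13 well-known endosomal and secretory Rabs, members whose edge status differed at both list lengths, the 10 highest edge scores in WT untreated, the strongest gained and lost locus peaks, and regulators that changed alike in both genotypes or both treatments. Others were chosen after their values were seen, to account for each member. Alternatives were equal list length, a score of at least 100, edges of 2.5 kb, loci of 50 kb, spans alone, annotated starts, autosomes alone, members without overlapping loci, and 50% reciprocal overlap. The counting code was run on a copy of the WT untreated list with the edge peaks of 200 genes removed. Among 21887 genes it called these 200 lost, with 0 gains. Peaks were only taken out, so no gain could arise, and the run checks the code alone. Tools were Python 3.11.15 with pandas 2.3.3, NumPy 2.4.6, Matplotlib 3.10.9 and SciPy 1.17.1.

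A result on 1 further gene family is not reported here.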

Additional observations from a re-analysis of the deposited data

Results flagged for a closer look

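At 3 Rab loci a region was in the lists of WT untreated and KO IL-4 macrophages and in neither other list, so that IL-4 went with its absence in WT and its presence in KO. The Rab43 region, chr6:87806037-87806362, scored 76.8 in WT untreated and 56.6 in KO IL-4. The Rab3c region, chr13:110184957-110185384, scored 67.8 in WT untreated and 55.1 in KO IL-4. The Rab12 region, chr17:66514326-66514770, scored 50.4 in WT untreated and 57.2 in KO IL-4. In WT untreated each of the 3 scored below the lowest score at equal list length, 89.57, so the pattern is absent there. Over all peaks, 3 of 92 regions at Rab loci (3.26%) and 2.73% of the regions at the loci of all genes were found in these 2 libraries alone. None lay at an edge of its gene, and the difference between genotypes was not tested.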

How the results depend on the processing

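At equal list length the losses with IL-4 in WT numbered 2 in place of 6, the WT untreated loci held 54 peaks in place of 84, the log2 ratio of locus peaks was -0.0817 for IL-4 in WT and turned to 0.0773 for KO against WT in untreated cells, and the log2 ratio of gained to lost peaks was -0.44 for IL-4 in WT and turned to 0.49 for KO against WT in untreated cells. With a score of at least 100, WT IL-4 had 19 members with an edge peak, losses with IL-4 were 10 in WT and 3 in KO, gains with IL-4 in KO 1, gains for KO against WT 0 in untreated cells and losses 0 after IL-4. Locus peaks were then 47, 26, 41 and 29 in WT untreated, WT IL-4, KO untreated and KO IL-4, and the log2 ratio of gained to lost peaks with IL-4 in KO was -2.54. By annotated starts alone, gains with IL-4 in KO were 0 and losses for KO against WT in untreated cells 1; Rab2a and Rab38 have no start in the table, so that their changes could not be counted. Edges of 2.5 kb gave 5 gains for KO against WT after IL-4, and loci of 50 kb held 181, 110, 145 and 119 peaks. The cause of these shifts was not tested, other than that a higher minimum score keeps fewer peaks and wider loci hold more. The set of libraries with an edge peak was the same at equal list length for 52 of 59 members, and with edges of 2.5 kb for 56. The other alternatives, spans alone, autosomes alone, and 50% reciprocal overlap, changed no direction and moved no recomputed value beyond the range set for a change. Depth is unknown, so how far an absent peak is an absent site cannot be given. No loci of members overlapped, so leaving out such members removed none. No paired analysis was possible because each group had 1 library.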

Other observations

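Other small GTPase families were counted in the same way. Of 29 Arf, Arl and Sar genes, which bud and tether vesicles, 22, 19, 20 and 19 had an edge peak, in the order of groups used above, against 38.2%, 28.4%, 34.8% and 29% of all genes (for this list 75.9%, 65.5%, 69% and 65.5%). Of 20 Ras, Ral and Rap genes the counts were 12, 11, 11 and 11 (60%, 55%, 55% and 55%).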
